A study of Mus musculus with 18 samples.

Results

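C1qa, C1qb, C1qc, Lyz2, Ctss, Cst3, Apoe, Csf1r, Lgmn and Mpo, genes usually associated with macrophages and other myeloid cells, were followed across 7 sorted populations of mouse thymocytes. They are 10 of the 34082 rows of the deposited table, and were picked by name because earlier work on the same values had put them forward as macrophage transcripts high in DN1e. That description held for C1qa, Lyz2, Ctss and Cst3, in which each DN1e library lay above each of the 15 other libraries. It held for 2 of the 3 DN1e libraries for C1qb and did not hold for C1qc, Apoe, Csf1r, Lgmn or Mpo, so the genes are called the 10 myeloid-associated genes here.

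All libraries were made from thymus of the C57BL/6 strain taken at postnatal day 10, and no genotype or treatment difference is given. The populations were DN1e (3 libraries), DN1ab (2), DN1d (2), DN1 ckit+ (3), DN2 (3), DN4 (3) and ImmV2 (2), and the design text names ImmV2, a label it does not expand, as a possible baseline for the progenitors. DN stands for double negative, that is, lacking the coreceptors CD4 and CD8, and ckit is the receptor tyrosine kinase Kit of early progenitors. Roughly 10000 cells per population were sorted and lysed, and RNA was amplified with a NuGEN Ovation kit before Illumina sequencing. The labels give no sort gates, and a sorted pool can hold cells of more than 1 type. In such bulk RNA, fewer cells of a type and less RNA per cell cannot be told apart. No label states that replicates came from separate animals, so p-values measure only how far these libraries spread, which may be technical.

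C1q, built from the products of C1qa, C1qb and C1qc, is the recognition unit of the classical complement pathway, and in tissues macrophages are a main source of it. Macrophages also degrade engulfed material in lysosomes, where cysteine proteases such as cathepsin S (Ctss) and legumain (Lgmn) cut proteins and cystatin C (Cst3) inhibits such proteases. In the thymus, macrophages clear the many thymocytes that die during selection. Lysozyme (Lyz2) breaks bacterial cell walls, Apoe carries lipid out of cells, Csf1r is the receptor on which most macrophages depend for survival, and Mpo is a granule enzyme of neutrophils and their precursors.

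Values are FPKM, read fragments scaled by transcript length and sequencing depth, and the lowest value in every library corresponds to 0.01 FPKM. Between 34.8% and 53.6% of rows were listed at that value in each library, and so was each of 10 housekeeping genes in at least 1 library. Pgk1, a glycolytic enzyme, was at the lowest value in 15 of 18 libraries. Of the 180 values of the 10 genes, 129 were above the lowest value, and 127 of these recurred for some gene in other libraries, in a median of 15 of them. The values thus look like a shared scale assigned by rank, and a level is best read as the position of a gene within its library. Of a gene at 0.01 FPKM no more is stated than that it was listed there.

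The promoters of 5 of the genes are shown because C1qb, C1qc and Lyz2 share a short motif that Ctss and Cst3, both high in DN1e, do not have in this window. Each sequence is the 250 bases before the gene start, read 5′ to 3′ on the gene's strand, from RefSeq on build GRCm38.p6. Capitals mark GGAAGT, or ACTTCC when it lies on the other strand, a core found in many sites of ETS-family transcription factors. The intervals are chr4:136886201-136886450, minus strand for C1qb, chr4:136892915-136893164, minus strand for C1qc and chr10:117282273-117282522, minus strand for Lyz2. They are chr3:95526536-95526785, plus strand for Ctss and chr2:148875513-148875762, minus strand for Cst3.
C1qb: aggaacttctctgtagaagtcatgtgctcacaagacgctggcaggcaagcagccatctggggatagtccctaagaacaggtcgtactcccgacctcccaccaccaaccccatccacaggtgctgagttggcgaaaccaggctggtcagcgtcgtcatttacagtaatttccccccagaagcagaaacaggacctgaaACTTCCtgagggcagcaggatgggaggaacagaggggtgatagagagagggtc
C1qc: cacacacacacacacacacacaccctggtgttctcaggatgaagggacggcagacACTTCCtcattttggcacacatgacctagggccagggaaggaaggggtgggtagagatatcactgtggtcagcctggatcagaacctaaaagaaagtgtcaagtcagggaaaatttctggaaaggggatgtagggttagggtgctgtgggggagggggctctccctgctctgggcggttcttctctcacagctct
Lyz2: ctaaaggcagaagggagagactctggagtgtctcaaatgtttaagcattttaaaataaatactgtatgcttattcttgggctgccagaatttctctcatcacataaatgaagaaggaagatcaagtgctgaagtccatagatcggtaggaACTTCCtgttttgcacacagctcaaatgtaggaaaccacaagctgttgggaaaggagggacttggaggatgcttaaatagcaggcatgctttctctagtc
Ctss: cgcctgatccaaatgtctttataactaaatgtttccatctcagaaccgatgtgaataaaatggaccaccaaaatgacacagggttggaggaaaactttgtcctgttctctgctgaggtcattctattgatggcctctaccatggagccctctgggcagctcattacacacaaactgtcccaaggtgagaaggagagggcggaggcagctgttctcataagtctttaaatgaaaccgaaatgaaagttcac
Cst3: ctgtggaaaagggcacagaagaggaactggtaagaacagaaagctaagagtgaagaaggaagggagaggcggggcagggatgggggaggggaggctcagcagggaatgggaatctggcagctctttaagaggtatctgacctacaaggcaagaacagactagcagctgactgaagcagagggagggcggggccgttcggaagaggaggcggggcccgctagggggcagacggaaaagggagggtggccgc

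The motif began at -53 from the gene start in C1qb, at -195 in C1qc and at -100 in Lyz2. Promoter entries were matched for 8 of the 10 genes, giving 11 windows because some genes have several starts, and the entries for C1qa and Csf1r were missing. GGAAGT or ACTTCC stood in 4 of the 11 windows, the fourth being Mpo at -222, and in 19.7% of 32851 mouse promoter windows of the same length. The E-box CACGTG, which reads the same on both strands and overlaps neither form of the other motif, stood in 1 of the 11, a second start of Lgmn, and in 6.02% of all windows. GGAAGT was picked after the sequences had been read, so its count is a description. Mpo carries the motif and was not high in DN1e, while Ctss and Cst3 lack it in this window and were.

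C1qa encodes the A chain of C1q. Its level was 108, 79.9 and 74.8 FPKM in the DN1e libraries, against 0.222 and 0.0717 FPKM in the DN1ab libraries and 0.0783 and 0.162 FPKM in the DN1d libraries. It was listed at the lowest value in all 3 DN1 ckit+ libraries and both ImmV2 libraries, at 0.01, 0.779 and 0.01 FPKM in the DN2 libraries, and at 1.12, 0.01 and 0.01 FPKM in the DN4 libraries. The DN1e libraries stood apart from the rest, with the lowest of them 66.8 times the highest other library, DN4 1. Among the 10 genes this was the widest gap between DN1e and the other libraries.

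C1qb encodes the B chain. It had 0.01, 409 and 325 FPKM in DN1e, against 35.0 and 0.01 FPKM in the ImmV2 libraries. DN1ab had 0.331 and 0.162 FPKM, DN1d had 0.631 and 0.401 FPKM, and all DN1 ckit+, DN2 and DN4 libraries were at the lowest value. Thus 2 DN1e libraries were far above every other library, while DN1e 1 was listed at the lowest value, and DN1e overlapped each other population.

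C1qc encodes the C chain. It had 431, 23.2 and 5.35 FPKM in DN1e, against 543 and 0.414 FPKM in the DN1d libraries and 78.2, 53.1 and 48.0 FPKM in the DN1 ckit+ libraries. It had 0.366 and 1.54 FPKM in the DN1ab libraries, 0.01, 0.0212 and 46.0 FPKM in the DN2 libraries, and 0.553, 0.01 and 0.01 FPKM in the DN4 libraries, and both ImmV2 libraries were at the lowest value. DN1d 1 was the highest of all, and the DN1 ckit+ libraries lay above 2 of the 3 DN1e libraries.

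The 3 chains assemble into 1 protein, and their genes all lie on chromosome 4. Across the 18 libraries, on the log2 scale, C1qa and C1qb were alike with a Pearson r of 0.66, while C1qc had an r of 0.33 with C1qa and 0.01 with C1qb. In DN1e 2 and DN1e 3 all 3 chains were at 1 FPKM or more, in DN1e 1 C1qa and C1qc were, and in no other library was more than 1 chain. The chains together summed to 539, 512 and 405 FPKM in DN1e, a narrower spread than that of C1qb or C1qc alone. Outside DN1e, the sum was 544 FPKM in DN1d 1, nearly all of it C1qc, and 78.3, 53.1 and 48.0 FPKM in the DN1 ckit+ libraries. C1qc also made up the 46.0 FPKM of DN2 3, C1qb the 35.0 FPKM of ImmV2 1, and no other library summed above 1.77 FPKM.

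**Figure D1:**
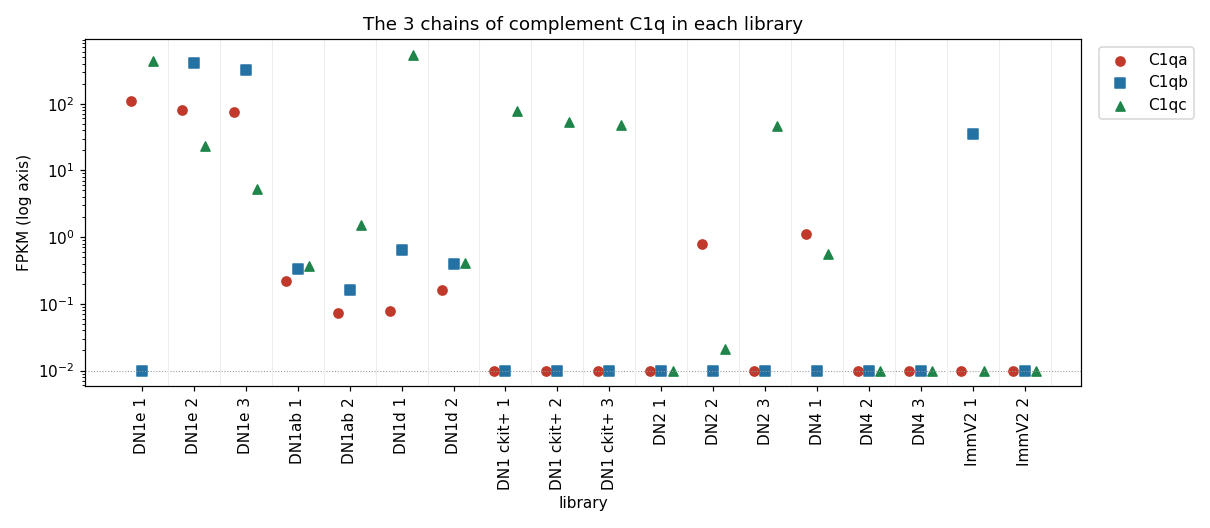
FPKM of C1qa, C1qb and C1qc (log axis) in each of the 18 libraries, DN1e at the left and ImmV2 at the right; the dotted line is the lowest value, 0.01 FPKM. C1qa is high only in the 3 DN1e libraries, C1qb is at the lowest value in DN1e 1, and C1qc is high alone in DN1d 1, the DN1 ckit+ libraries and DN2 3.

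Lyz2, the lysozyme of macrophages and neutrophils, was higher in each DN1e library than C1qa, Ctss or Cst3. It stood at 406, 290 and 226 FPKM in DN1e, against 24.9 and 10.4 FPKM in the DN1ab libraries, 6.38 and 0.648 FPKM in the DN1d libraries, and 0.01, 16.5 and 13.4 FPKM in the DN1 ckit+ libraries. DN2 had 6.03, 3.00 and 5.29 FPKM, DN4 had 0.049, 0.0355 and 0.0324 FPKM, and ImmV2 had 0.149 and 0.0329 FPKM. All DN1e libraries were higher than all others, the lowest by 9.06 times, and Lyz2 ranked 123, 175 and 221 from the top of the DN1e libraries. After DN1e the order of medians was DN1ab, DN1 ckit+, DN2, DN1d, ImmV2 and DN4, and only DN1d and ImmV2 among those neighbours did not overlap. Lyz1, a near-identical paralogue whose reads may be split with those of Lyz2, had 0.01, 35.0 and 26.5 FPKM in DN1e and at most 10.7 FPKM elsewhere, so the division between both genes is uncertain.

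Ctss encodes cathepsin S, the protease that trims the invariant chain from class II molecules. It had 137, 151 and 60.3 FPKM in DN1e, against 18.4 and 3.20 FPKM in the DN1ab libraries, 4.46 and 5.09 FPKM in the DN1d libraries, and 6.36, 9.11 and 9.28 FPKM in the DN1 ckit+ libraries. DN2 had 1.44, 0.029 and 1.19 FPKM, DN4 had 0.01, 0.177 and 0.0809 FPKM, and ImmV2 had 1.34 and 9.85 FPKM. The DN1e libraries were again above all others, with the lowest at 3.28 times DN1ab 1, and DN2 and DN4 were at the low end.

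Cst3 encodes cystatin C, a secreted inhibitor of cysteine proteases that many cell types make. It had 230, 120 and 181 FPKM in DN1e, against 55.8 and 52.4 FPKM in the DN1ab libraries, 30.8, 29.8 and 0.0381 FPKM in the DN1 ckit+ libraries, and 0.01 FPKM in both DN1d libraries. DN2 had 8.41, 14.3 and 13.8 FPKM, DN4 had 14.8, 9.17 and 10.1 FPKM, and ImmV2 had 22.5 and 14.8 FPKM. Of the 4 genes wholly above in DN1e, Cst3 had the smallest gap, 2.15 times between the lowest DN1e library and DN1ab 1, and the highest median in the other libraries, 14.3 FPKM.

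Groups without overlap also arise among other genes. All 3 DN1e libraries lay above the 15 others in 267 of the 24525 genes that reached 1 FPKM in at least 2 libraries, or 1.09%, and in 4 of the 10 genes here, which all passed that filter and were picked for this pattern. No test of these genes against DN1e is therefore given. The log2 difference of FPKM plus 1 between DN1e and each of the other 6 populations ran between 4.12 and 8.17 for Lyz2 and between 3.57 and 6.64 for Ctss, in both cases widest against DN4. Leaving out populations wholly at the lowest value, it ran between 6.08 and 6.29 for C1qa (without DN1 ckit+ and ImmV2) and between 1.64 and 4.09 for Cst3 (without DN1d). The 4.09 was against DN1 ckit+ and rests on DN1 ckit+ 3 at 0.0381 FPKM, beside libraries at 30.8 and 29.8 FPKM. On this scale the change of low genes is understated.

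**Figure D2:**
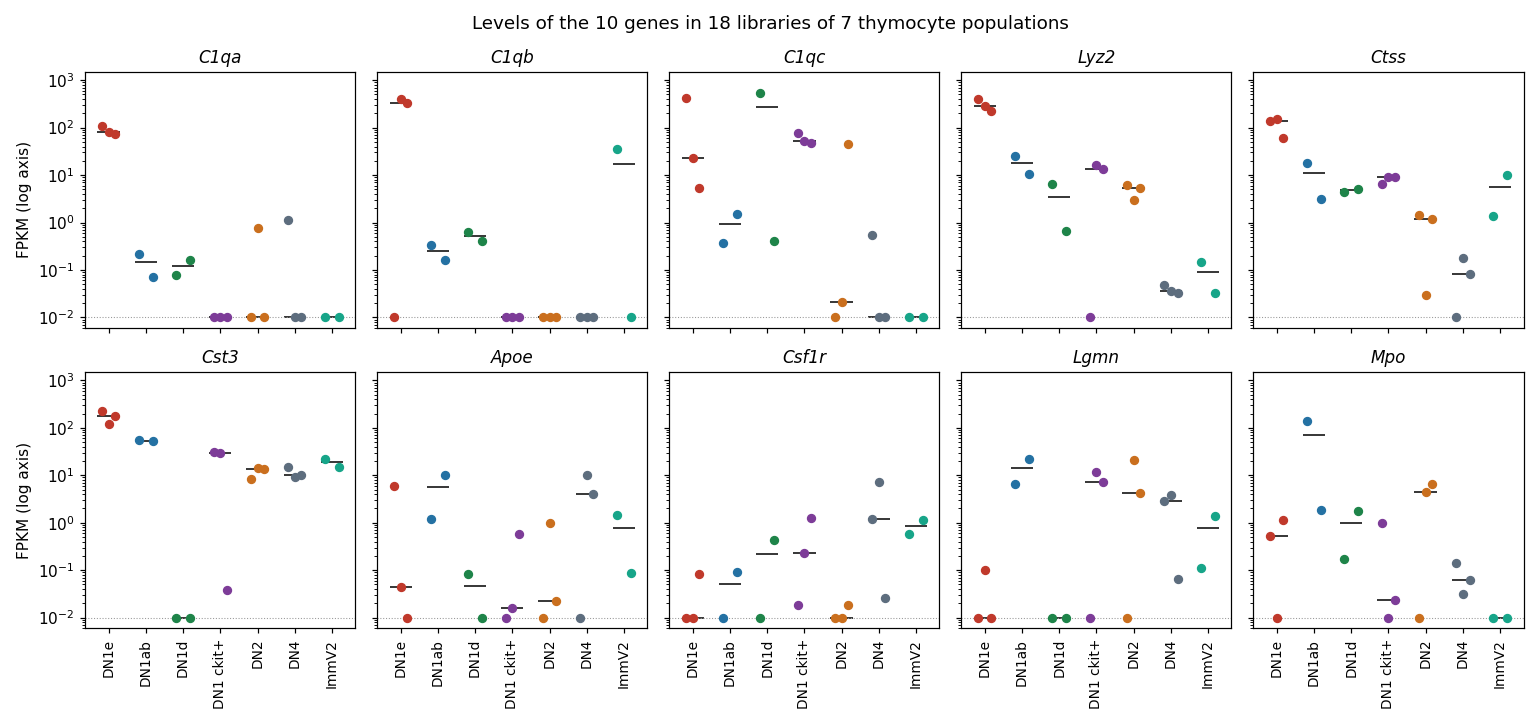
FPKM (log axis) of the 10 genes in 18 libraries; points are libraries, black lines are population medians, and the dotted line is 0.01 FPKM. DN1e points of C1qa, Lyz2, Ctss and Cst3 sit above all other points, those of Apoe, Csf1r, Lgmn and Mpo do not.

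For the remaining 4 genes, no DN1e library was the highest of the 18. Lgmn, the asparaginyl endopeptidase that works beside the cathepsins, had 0.01, 0.10 and 0.01 FPKM in DN1e, against 6.57 and 22.3 FPKM in the DN1ab libraries and 0.01, 20.6 and 4.31 FPKM in the DN2 libraries. It had 0.01, 11.6 and 7.32 FPKM in the DN1 ckit+ libraries, 2.91, 3.91 and 0.0638 FPKM in the DN4 libraries, 0.113 and 1.40 FPKM in the ImmV2 libraries, and both DN1d libraries had the lowest value. All DN1e libraries were listed below both DN1ab libraries, 2 of them at the lowest value.

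Mpo, myeloperoxidase, had 0.527, 0.01 and 1.16 FPKM in DN1e, against 138 and 1.90 FPKM in the DN1ab libraries. It had 0.175 and 1.80 FPKM in the DN1d libraries, 1.00, 0.01 and 0.0232 FPKM in the DN1 ckit+ libraries, 0.01, 4.39 and 6.70 FPKM in the DN2 libraries, and 0.139, 0.0308 and 0.0612 FPKM in the DN4 libraries, and both ImmV2 libraries were at the lowest value. A single library, DN1ab 1, was high, and the second DN1ab library was lower than 2 DN2 libraries. The DN1e median, 0.527 FPKM, came after those of DN1ab, DN2 and DN1d, and DN1e overlapped all of them except DN1ab.

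Apoe had 5.91, 0.0444 and 0.01 FPKM in DN1e, against 1.22 and 9.94 FPKM in the DN1ab libraries and 0.01, 10.2 and 3.97 FPKM in the DN4 libraries. In the other populations it was at or below 1.48 FPKM, the value of ImmV2 1. Csf1r, the receptor for the growth factors CSF1 and IL-34, had 0.01, 0.01 and 0.0837 FPKM in DN1e, against 0.0181, 0.227 and 1.23 FPKM in the DN1 ckit+ libraries, 1.19, 7.15 and 0.0263 FPKM in the DN4 libraries, and 0.569 and 1.17 FPKM in the ImmV2 libraries. Csf1r was at or under 0.43 FPKM in all DN1ab, DN1d and DN2 libraries. Apoe overlapped between DN1e and every other population, with DN1e 1 next after DN4 2 and DN1ab 2, and Csf1r was at or near the lowest value in DN1e and below both ImmV2 libraries.

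The genes were tested only among DN1ab, DN1d, DN1 ckit+, DN2 and DN4. These populations were at most the low side of the pattern the genes were picked for. The spread was estimated with the DN1e and ImmV2 libraries included. In limma fits across all 24525 genes, with a call at an adjusted p below 0.05 and a log2 difference of at least 1, no gene of the 10 was called in any of 7 comparisons. For C1qa and C1qb these tests say nothing, since both passed the filter only through DN1e: in the 13 libraries of these populations C1qa reached 1 FPKM in 1 and C1qb in 0. The other 8 genes reached it in at least 2. The background of calls over all genes was low too: 0.0815% for DN4 against DN2, 0.208% for DN4 against DN1 ckit+, 0.355% for DN4 against DN1ab and 0.0612% for DN2 against DN1 ckit+. It was 0.298% for DN1ab against DN1 ckit+, 0.363% for DN1d against DN1 ckit+ and 0.379% for DN1d against DN1ab. A joint moderated F test over the 5 populations called 0.689% of genes and none of the 10. At an unadjusted p below 0.05, the comparisons in this order held 2, 3, 3, 1, 2, 1 and 3 of the 10 genes and the F test 5, against 5.44% to 9.11% of all genes. By the same test the CD3 epsilon gene Cd3e was called higher in DN4 against DN2, with a log2 difference of 6.82 ± 1.00 (SE; limma adjusted p = 0.00741).

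The lowest adjusted p of the 10 genes was that of the protease inhibitor Cst3. It had a log2 difference in DN1d against DN1ab of -5.77 ± 1.41 (SE; limma adjusted p = 0.105). Both DN1d libraries were at the lowest value, so the size of this difference depends on the pseudocount and is no fold change. Its adjusted p ranged between 0.0246 and 0.531 over the alternatives, and it passed without DN1 ckit+ 3 (-5.77, 0.0246) and with values as deposited (-12.40, 0.047). Lyz2 had a log2 difference of -4.05 ± 1.20 in DN4 against DN1ab (limma adjusted p = 0.268), and Ctss one of -3.07 ± 0.92 in DN4 against DN1 ckit+ (limma adjusted p = 0.307). In both comparisons every DN4 library lay below every library of the other population. C1qc had a log2 difference of -5.67 ± 1.92 in DN4 against DN1 ckit+ (limma adjusted p = 0.397), with all 3 DN4 libraries below all 3 DN1 ckit+ libraries. It passed in the fit of only these populations (limma adjusted p = 0.0247) and in no other alternative.

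Mpo depended on the DN1ab replicates. Its log2 difference was -4.22 ± 1.29 in DN4 against DN1ab (limma adjusted p = 0.293), 3.98 ± 1.29 in DN1ab against DN1 ckit+ (limma adjusted p = 0.396) and -3.47 ± 1.42 in DN1d against DN1ab (limma adjusted p = 0.541). Without DN1ab 2, the library with 1.90 FPKM, these became -7.01, 6.77 and -6.26 with adjusted p of 0.00604, 0.0076 and 0.0243 in limma. The lone DN1ab 1 is then assumed to vary like the other populations. These calls thus rest on 1 library at 138 FPKM.

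**Figure D3:**
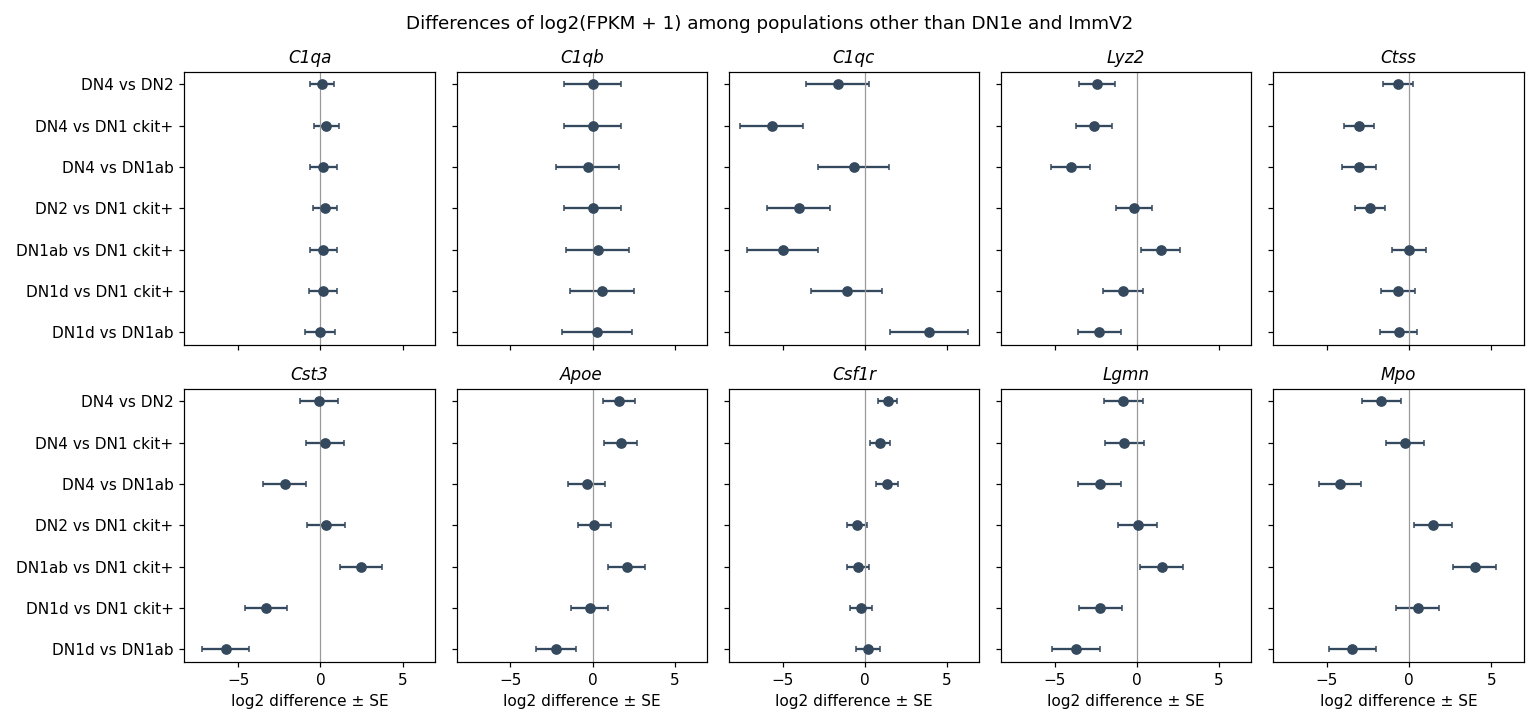
Log2 differences of FPKM plus 1, first population minus second, with SE bars, for the 10 genes in the 7 comparisons that leave out DN1e and ImmV2. No difference passed the test; Cst3 in DN1d against DN1ab at -5.77 and C1qc in DN4 against DN1 ckit+ at -5.67 lie farthest from 0.

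Over the 18 libraries, Lyz2 and Ctss were most alike (Pearson r = 0.84), followed by C1qa and Lyz2 (0.82). C1qb and Cst3 were each nearest to C1qa (0.66 for both), and C1qc to Ctss (0.50). Apoe and Csf1r were nearest to each other at 0.33, and Lgmn and Mpo at 0.36. The libraries share a rank-like scale and the 10 genes were picked for DN1e, so these correlations are descriptions. Outside the 10 genes, the profiles nearest to their mean were those of Tspan33 (r = 0.889), Sh3gl3 (0.861), Cxcl16 (0.846), Ebi3 (0.846), Batf3 (0.843), Dse (0.826), P2ry12 (0.825), Unc93b1 (0.819), Clgn (0.817) and Ccl2 (0.814). Tspan33 had between 20.9 and 56.1 FPKM in DN1e and at most 14.1 FPKM elsewhere, and the chemokine Ccl2 between 3.42 and 5.06 FPKM in DN1e and at most 0.197 FPKM elsewhere.

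A list of 22 genes of macrophage identity was read beside the 10 genes. Its summed level was 136 to 384 FPKM in DN1e, against 1.97 to 195 FPKM in the other libraries, so the ranges overlapped. Such a sum can rest on few genes: Axl had 0.01, 171 and 0.01 FPKM in DN1e and at most 1.6 FPKM elsewhere. Emr1, which encodes the F4/80 antigen of mouse macrophages, had 0.01, 0.0142 and 0.0262 FPKM in DN1e and at most 1.90 FPKM elsewhere. The iron exporter Slc40a1 had 0.0766, 143 and 101 FPKM in DN1e and at most 11.6 FPKM elsewhere. The complement receptor Vsig4 had 27.7, 32.8 and 0.01 FPKM in DN1e and up to 102 FPKM in DN2 3. Slc40a1 and Vsig4 were each near or at the lowest value in 1 DN1e library, and not in the same one.

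Wholly above the others in DN1e were the heme oxygenase Hmox1 and the secreted macrophage protein Cd5l, of which Cd5l reached 1 FPKM in too few libraries to be tested. Hmox1 had 10.8, 2.80 and 10.5 FPKM in DN1e and at most 0.683 FPKM elsewhere. Hmox1, Trem2 and Cd163 reached 1 FPKM in 0 libraries outside DN1e, and Fcgr1, Timd4, Axl and Ms4a7 in 1. All of these passed the filter only through DN1e. The calls of Hmox1 below are therefore descriptions. The medians of the list in DN1e comparisons, and its counts at an unadjusted p below 0.05, take in such genes and are descriptions too. Of the 17 genes of the list that passed the filter, Hmox1 alone was called higher in DN1e against DN4, where 0.575% of all genes were called higher. The median log2 difference of the 17 was 1.34, against 0.00 over all genes. It was as high in lists of unrelated cells, at 1.37 for 6 thymic epithelium genes and 1.63 for 3 erythroid genes. Hmox1 was also the single call of the list against DN1 ckit+ and against DN2, where 0.44% and 0.449% of all genes were called higher. These calls held in 17 and 9 of 25 alternatives, and were lost without each DN1 ckit+ library and DN4 2 in the first and without every DN1ab, DN1 ckit+, DN2 and DN4 library and ImmV2 1 in the second. Limma called 0 of the 17 against DN1ab, DN1d and ImmV2, where the medians were 0.53, 1.14 and 1.63 and 5, 4 and 3 of the genes had an unadjusted p below 0.05. Of all genes, 0.249%, 0.273% and 0.302% were called higher in these comparisons. The call of Hmox1 against DN4 was lost without each DN4 library (limma adjusted p between 0.0685 and 0.0804) and under 3 other settings (0.0513 to 0.353).

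**Figure D4:**
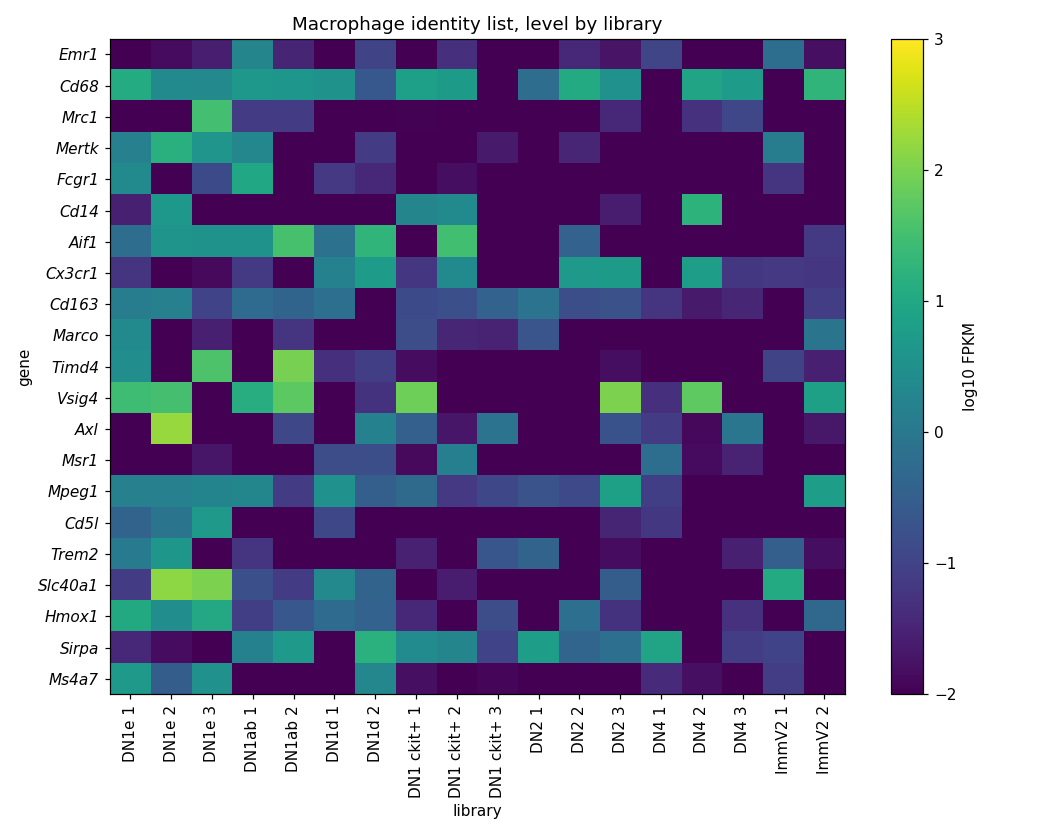
Level of macrophage identity genes (rows) in 18 libraries (columns), as log10 FPKM by colour, DN1e at the left. Hmox1, at 2.80 to 10.8 FPKM in DN1e, and Cd5l are above all others in the 3 DN1e libraries; Slc40a1 and Vsig4 are high in 2 of 3, and Emr1 in none.

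The pathways around the 10 genes gave the same mixed picture. Among 23 lysosomal proteases and their partners, Ctsb and Cstb were wholly above in DN1e and called higher against DN4, 2 of 22 tested. Ctsb, cathepsin B, had 219, 233 and 124 FPKM in DN1e and at most 15.5 FPKM elsewhere, and its inhibitor Cstb had 268, 140 and 157 FPKM in DN1e and at most 52.8 FPKM elsewhere. Ctsb was called higher in 5 of the 6 comparisons with DN1e, and Cstb in 2. The Ctsb call against DN1d held in 6 of 25 alternatives. No other cathepsin of this list was wholly above in DN1e. Ctsc had 14.3, 95.2 and 2.64 FPKM in DN1e and at most 5.04 FPKM elsewhere. Ctsd had 2.56, 389 and 0.105 FPKM and Ctsl 0.01, 150 and 0.01 FPKM in DN1e. Ctsl and Ctsd were thus high in DN1e 2 alone among the DN1e libraries.

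Among complement genes, Cfp was called higher in DN1e against DN4, 1 of 13 tested, and also against DN1 ckit+ and DN2. It was not called against DN1ab, DN1d or ImmV2. Cfp encodes properdin, which stabilises the convertase of the alternative pathway, and had 197, 166 and 149 FPKM in DN1e and at most 17.6 FPKM elsewhere. In the list around the CSF1 receptor, the ligand Csf1 had 12.6, 11.3 and 20.1 FPKM in DN1e and at most 9.13 FPKM elsewhere. It was the 1 of 10 tested that was called against DN4 and against DN1 ckit+, while the receptor itself was near the lowest value in DN1e. Limma called 0 of the 10 against DN2, DN1ab, DN1d and ImmV2, where 4, 2, 5 and 3 had an unadjusted p below 0.05. Csf1 passed the filter only through DN1e, with 1 other library at 1 FPKM or more, so its calls are descriptions. The call against DN1 ckit+ held in 15 of 25 alternatives. The kinase Fgr had 15.8, 19.3 and 15.2 FPKM in DN1e and at most 10.9 FPKM elsewhere, and was not called. In lipid handling limma called 0 of 13 against DN4 and 2 had an unadjusted p below 0.05, while the cholesterol exporter Abcg1 had 18, 43.1 and 23.6 FPKM in DN1e and at most 10.8 FPKM elsewhere.

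Against DN4, Ctsb had a log2 difference of 5.40 ± 0.87 and Cfp one of 6.72 ± 1.00 (SE; limma adjusted p = 0.00506 and 0.00299). Both calls ended with values as deposited, at adjusted p of 0.053 and 0.0547 in limma, and held without any single library. The call of Csf1 against DN4 was lost without each DN4 library (limma adjusted p between 0.0859 and 0.101) and under 3 other settings (0.0558 to 0.112). The call of Cstb was lost without DN1e 1, DN1e 2, DN1 ckit+ 1, DN2 2 and each DN4 library (0.0512 to 0.121), and under 3 other settings (0.0739 to 0.247). These tests use DN1e, as the choice of the 10 genes did, and are read only beside the background of 0.575%. That background was not stable: calls against DN4 were 141 higher and 70 lower, but 70 and 88 without DN4 1, 67 and 70 without DN4 2, 71 and 71 without DN4 3, 317 and 53 without DN1e 3, 61 and 84 in the fit of only these populations, and 74 and 80 with values as deposited. With values as deposited the split also turned to 48 higher and 51 lower against DN1 ckit+ (108 and 62 before) and moved to 47 and 46 against DN2 (110 and 33 before).

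**Figure D5:**
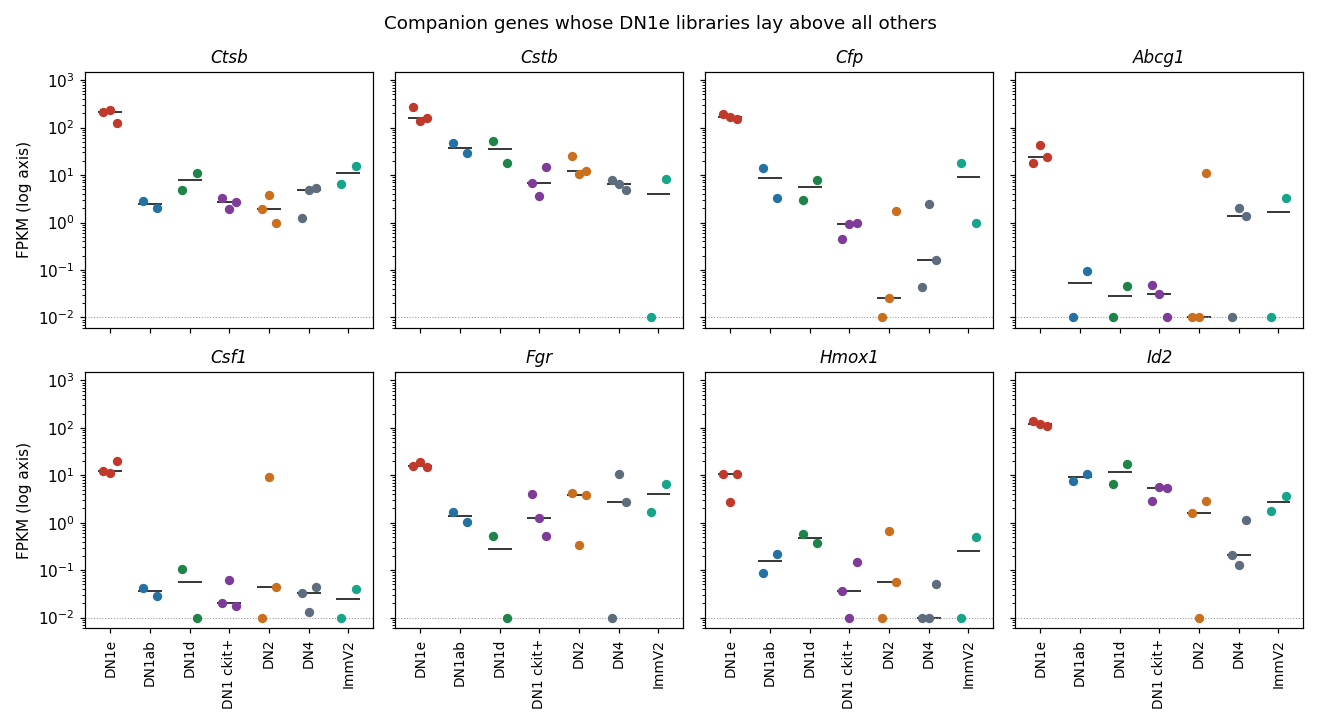
FPKM (log axis) of 8 related genes in 18 libraries; points are libraries, black lines are population medians, and the dotted line is 0.01 FPKM. The 8 were picked because their 3 DN1e libraries lie above the 15 others, so this pattern is a rule of choice. Cldn3 of the thymic epithelium list, Hba-a1 of the erythroid list and Cd5l had it too and are not drawn. Of 141 companion genes tested, 9 had it (6.38%), against 1.09% of all genes tested, and the lists were chosen with earlier results known. Ctsb, with 124 FPKM or more in DN1e and at most 15.5 FPKM elsewhere, and Cfp show wide gaps.

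Markers of other cells that a DN1e sort could hold were measured in the same libraries. Neutrophil granule genes summed to 39.2 to 91.5 FPKM in DN1e, against 0.222 to 92.6 FPKM elsewhere. Camp, Ltf, Ngp and S100a9 were at the lowest value in all DN1e libraries. They were mostly so elsewhere too, with a median of 0.01 FPKM outside DN1e and 1, 2, 2 and 5 other libraries at 1 FPKM or more. Others of the list were above the lowest value in some DN1e libraries. The granule protease Prtn3 had 46.0, 0.01 and 41.3 FPKM in DN1e and at most 16.5 FPKM elsewhere. S100a8 had 0.01, 0.01 and 12.2 FPKM in DN1e and at most 6.61 FPKM elsewhere. Retnlg was called lower in DN1e against ImmV2, where 0.29% of all genes were, with 0.0185, 0.01 and 0.01 FPKM in DN1e, against 4.18 and 6.67 FPKM in ImmV2 (limma adjusted p = 0.047). The Retnlg call held in 6 of 25 alternatives, and of single libraries only DN1d 1, DN1d 2 and DN4 1 could be left out without losing it. Dendritic cell genes summed to 90.2 to 349 FPKM in DN1e, against 5.69 to 230 FPKM elsewhere. Zbtb46 and Cd209a were at the lowest value in all DN1e libraries, but had at most 0.07 and 0.0571 FPKM elsewhere. The class II gene H2-Ab1 had 26.4, 36.1 and 4.49 FPKM in DN1e and up to 171 FPKM elsewhere. H2-Eb1 had 19.3, 10.4 and 6.24 FPKM in DN1e and up to 41.6 FPKM elsewhere. H2-Aa had 0.01, 95 and 17.6 FPKM and up to 60.8 FPKM. Xcr1 had 273, 0.0148 and 0.02 FPKM and up to 10.8 FPKM. Batf3 was called higher against DN4, 1 of 10 tested. It passed the filter only through DN1e, with 1 other library at 1 FPKM or more. That call was lost without 12 single libraries: DN1d 2 and every ImmV2, DN1 ckit+, DN2 and DN4 library (limma adjusted p between 0.0502 and 0.119). It was also lost under 3 other settings (0.0575 to 0.328). The progenitor receptor Flt3, of the same list, was called lower in DN4 against DN1ab, with a log2 difference of -4.38 ± 0.87 (SE; limma adjusted p = 0.0336), lost without DN1ab 2 and each DN4 library (0.0838 to 0.106) and under 3 other settings (0.0725 to 0.242). Innate lymphoid and NK genes summed to 111 to 146 FPKM in DN1e, above the 7.74 to 70.3 FPKM elsewhere, mostly through Id2, a transcriptional inhibitor, with 140, 122 and 107 FPKM in DN1e and at most 17.3 FPKM elsewhere. The sum is thus largely that of 1 gene. Klrb1c, Klrd1 and Tbx21 of this list were at the lowest value in all DN1e libraries. The median log2 difference of its 7 tested genes against DN4 was 0.36. Id2 was called higher against DN4, 1 of 7 tested, and in all 25 alternatives. It was called in 4 of the 6 comparisons with DN1e, and not against DN1ab or DN1d. The calls against ImmV2, DN1 ckit+ and DN2 held in 20, 21 and 23 of 25 alternatives. Thymic epithelium genes summed to 30.2 to 41.1 FPKM in DN1e, against 0.206 to 21.6 FPKM elsewhere.

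T cell genes summed to 182 to 207 FPKM in DN1e, inside the 69 to 582 FPKM elsewhere, B cell genes to 4.18 to 16.8 FPKM in DN1e, against 1.14 to 92.1 FPKM elsewhere, and erythroid genes to 6.59 to 44.5 FPKM in DN1e, against 0.68 to 49.8 FPKM elsewhere. Thy1 alone of 12 tested T cell genes was called lower against DN4, where 0.285% of all genes were called lower, and that call was lost under 3 other settings (limma adjusted p between 0.0516 and 0.078) and without any single library other than DN1ab 2, DN2 1, ImmV2 1 or ImmV2 2 (0.0501 to 0.122). In the same list Cd3e was called higher in DN1e against DN1 ckit+ and against DN2, by log2 differences of 5.45 ± 1.00 and 5.26 ± 1.00 (limma adjusted p = 0.0146 and 0.0212). Cd3e was the 1 call among 12 tested in each, where 0.44% and 0.449% of all genes were called higher. The median log2 differences of the 12 were 0.54 and 0.02. Other CD3 chains went both ways. Cd3d had 18.8, 9.59 and 22.5 FPKM in DN1e, against 0.0219, 0.655 and 0.0717 FPKM in DN1 ckit+. Cd3g had 4.20, 6.54 and 3.08 FPKM in DN1e, against 14.2, 15.5 and 8.40 FPKM in DN1 ckit+. Both Cd3e calls held in 21 of 25 alternatives and were lost without DN1 ckit+ 1 or DN1 ckit+ 3 (0.054 and 0.0528) and without DN2 1 or DN2 2 (0.0592 and 0.0826). The T cell factor gene Bcl11b was called higher against DN1 ckit+ in DN4 (4.39 ± 0.86, limma adjusted p = 0.0476, held in 7 of 25 alternatives) and in DN1d (5.13 ± 0.96, 0.0246, held in 19 of 25). The call in DN1d was lost without DN1d 2 or any DN1 ckit+ library, and that in DN4 without any single library other than DN1d 1, DN1d 2, DN1e 3 or ImmV2 2. Limma called 0 of 11 neutrophil, 0 of 7 B cell, 0 of 6 epithelial and 0 of 3 erythroid genes against DN4, and 2, 0, 1 and 1 of them had an unadjusted p below 0.05. The 10 housekeeping genes summed to 90.4 to 227 FPKM in DN1e, against 103 to 4495 FPKM elsewhere, with Eef2 and Hsp90ab1 called lower against DN4 (2 of 10). The Eef2 call ended with values as deposited (limma adjusted p = 0.0751). The part of these other cells, and of low housekeeping levels, in the height of C1qa, Lyz2, Ctss and Cst3 in DN1e was not tested.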

How the data were processed

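RNA sequencing was done on 18 libraries of 7 thymocyte populations. The authors deposited log2 FPKM values for 34082 gene symbols, 1 row each. Per the submitters' processing notes, reads were handled with Bowtie and build mm8; the quantifier, annotation, normalization and strand handling are not given there or in the labels. No counts were used, so depth is unknown, and the number of libraries limits precision.

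The 10 genes and the 13 companion lists were chosen with earlier results of these data known. Named were the 10 genes, up to 4 genes per list with the highest DN1e median, genes called in a comparison, and the 10 nearest profiles; further list members were named after their values were seen. The level of 1 gene of the macrophage identity list is not reported here.

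The log2 scale was undone, 1 FPKM added as a pseudocount and log2 taken again. The 24525 genes that reached 1 FPKM in 2 or more libraries entered 1 fit of 7 population means in limma 3.58.1 (R 4.3.3), two-sided, adjusted after Benjamini-Hochberg across all genes tested. The procedure was tested on simulated data with 200 shifted genes. Alternatives were other pseudocounts (0.1 and 5), values as deposited, no filter, quantile normalization, only the populations compared, a replicate block and each library left out. The lowest value was taken with a tolerance of 0.1%. Promoter sequences came from a RefSeq table on GRCm38.p6, not from the build of the files.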

Additional observations from a re-analysis of the deposited data

How the results depend on the processing

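Calls of the 10 genes among the populations other than DN1e and ImmV2 rarely appeared. Cst3 was called in DN1d against DN1ab with values as deposited (1 of the 10 genes; limma adjusted p = 0.047) and without DN1 ckit+ 3 (0.0246). C1qc was called in DN4 against DN1 ckit+ in the fit of only the populations compared (1 of the 10 genes; 0.0247). Mpo was called in DN4 against DN1ab, DN1ab against DN1 ckit+, DN1d against DN1ab and the F test without DN1ab 2; leaving out single libraries gave 0 to 1 called gene of the 10 in each of these. Apart from these, no alternative called any of the 10 genes in these comparisons.

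Counts over all genes moved more. With a pseudocount of 0.1 FPKM, calls were 13 for DN4 against DN2, 31 for DN4 against DN1 ckit+, 55 for DN4 against DN1ab, 4 for DN2 against DN1 ckit+, 46 for DN1d against DN1 ckit+, 56 for DN1d against DN1ab, 83 for DN1e against DN1ab, 85 for DN1e against DN1d and 112 in the F test. In the same order, values as deposited gave 11, 10, 31, 1, 12, 29, 43, 24 and 65, with 29 for DN1ab against DN1 ckit+, 46 for DN1e against ImmV2, 99 for DN1e against DN1 ckit+ and 93 for DN1e against DN2. A pseudocount of 5 FPKM gave 25 and no filter gave 23 for DN2 against DN1 ckit+, and no filter gave 152 for DN1d against DN1ab. The fit of only the populations compared gave 9 for DN4 against DN2, 105 for DN4 against DN1 ckit+, 30 for DN2 against DN1 ckit+, 84 for DN1e against DN1 ckit+, 64 for DN1e against DN2 and 267 in the F test; limma called 0 genes for the 7 pairs with a 2-library population, where fewer libraries entered the fit (1221 to 1862 genes at an unadjusted p under 0.05). Leaving out 1 library gave 19 to 56 for DN4 against DN2 (20 with all libraries), 43 to 81 for DN4 against DN1 ckit+ (51), 73 to 290 for DN4 against DN1ab (87), 10 to 49 for DN2 against DN1 ckit+ (15), 66 to 282 for DN1ab against DN1 ckit+ (73), 69 to 283 for DN1d against DN1 ckit+ (89) and 71 to 246 for DN1d against DN1ab (93). It gave 149 to 309 in the F test (169), and for DN1e 116 to 289 against ImmV2 (145), 105 to 318 against DN1ab (142), 115 to 292 against DN1d (147), 117 to 351 against DN1 ckit+ (170), 85 to 336 against DN2 (143) and 137 to 370 against DN4 (211). A lone library left in a population is assumed to vary like the others.

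Replicate numbers did not pair the samples: over 48 pairs of same-numbered libraries, r lay between -0.0164 and 0.0174. A replicate block gave 28 for DN4 against DN1 ckit+, 56 for DN4 against DN1ab, 9 for DN2 against DN1 ckit+, 47 for DN1ab against DN1 ckit+, 57 for DN1d against DN1 ckit+, 69, 85, 67 and 113 for DN1e against ImmV2, DN1ab, DN1d and DN1 ckit+, and 99 in the F test, and called 0 of the 10 genes in the comparisons without DN1e and in the F test. The causes of these moves were not tested.

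The rank-like scale, the unknown depth, the many rows at the lowest value and groups of 2 or 3 libraries limit all values above.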
